A study of Mus musculus with 6 samples.

Results

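The 40 genes described here encode the clathrin coat, the adaptor protein (AP) complexes AP-1, AP-2 and AP-3, the accessory adaptors that help a coated pit to form, and the dynamins that cut it free. They form a fixed list of gene names: 3 clathrin chains, 7 AP-1 subunits, 5 AP-2 subunits, 4 AP-3 subunits, 10 accessory adaptors, 2 amphiphysins, 3 dynamins, 2 beta-arrestins, 2 genes of the Hip1 family and 2 uncoating factors. All 40 were found among the 55487 gene identifiers of the count table, and all 40 passed the filter on low counts that left 19015 genes for testing.

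In clathrin-mediated endocytosis, AP-2 and early-arriving adaptors bind membrane lipids and the tails of cargo receptors, and clathrin triskelia, each built of heavy and light chains, polymerize over them into a curved lattice. Proteins with BAR domains narrow the neck of the pit, dynamin severs it, and uncoating factors then recycle the coat. In endothelial cells (ECs), receptors such as VEGFR2 enter the cell by this route, while AP-1 and AP-3 sort cargo at the Golgi and on endosomes.

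The samples were 6 cultures of C57BL/6 mouse skin cells, enriched with CD31 microbeads and labelled as endothelial, from which polyA RNA was sequenced. For 48 hours, 3 cultures received medium with 5 mmol/L glucose (normal glucose) and the other 3 medium with 20 mmol/L (high glucose). A cell isolation used the skin of 4 to 6 mice aged 2 to 3 months. The paper's legends count the replicates as mice, whereas the labels do not say whether they came from separate isolations, so P values measure the spread between these samples, and how much of it is between animals is not known. Each sample held between 120192466 and 146881356 counts in total.

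The labelled cell type was checked against its markers. Pecam1, which encodes CD31, was at 0.128 ± 0.0378 normalized CPM (counts scaled to a common library total) in normal and 0.103 ± 0.0359 CPM in high glucose (SD, n = 3), and 5 of 12 endothelial markers were under 1 CPM in every sample. Of the 9 endothelial markers that passed the filter, 3 were called lower (Cdh5, Flt1, Egfl7) and 2 higher (Tek, Erg). The summed level of the 12, most of it from Eng and Flt1, lay between 215 and 243 CPM in normal and between 194 and 200 CPM in high glucose. The summed level of 10 fibroblast markers, led by collagen genes, lay between 38500 and 41670 CPM in normal and between 70900 and 75840 CPM in high glucose, with 9 of the 10 called higher and 1 lower. All 10 G2/M cell cycle markers were called lower, and their sum fell from 225–237 to 116–119 CPM. In bulk RNA, fewer cells of a type and less RNA per cell cannot be told apart, and the part that these shifts play in the results was not tested.

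Of the 40 genes, 4 were called lower and 6 higher in high glucose at an adjusted P under 0.05 (edgeR quasi-likelihood test, Benjamini-Hochberg over all 19015 genes), and 30 were not called. Over all tested genes, 14.5% were called lower, 16.9% higher and 31.4% in either direction, so the members' shares of 10.0%, 15.0% and 25.0% lay below those of the table as a whole. The higher genes were Itsn1, Arrb1, Snap91, Hip1, Epn2 and Ap2a2, and the lower genes were Amph, Clta, Bin1 and Fcho1. Most of the changes were small. The median absolute log2 fold change was 0.11 for the members and 0.20 for all tested genes, and the signed medians were 0.06 and 0.01. Among 9965 tested genes in the central range of the members' mean log2 CPM, the absolute median was 0.14 and the signed median 0.03. Of those genes, 14.3% were called lower, 22.7% higher and 37.0% in either direction. The summed level of the 40 genes was 4028 to 4212 CPM in normal and 4255 to 4284 CPM in high glucose. The TMM scaling factors differed by more, at 1.03 to 1.05 in normal and 0.954 to 0.966 in high glucose. The direction of the difference in summed level therefore rests on that scaling. Normalized values were without overlap between the groups for 14 members (6 lower, 8 higher), against 46.4% of all tested genes.

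The counts depended on single samples and on the scaling between libraries. Without high glucose replicate 3, 1 member was lower and 4 were higher. Without high glucose replicate 2, 2 were lower and 4 higher, and without normal glucose replicate 1, 7 were lower and 5 higher. When libraries were scaled by total count alone, which moved the median of all genes by -0.11 on the log2 scale, 12 members were lower and 4 higher, so that 75.0% rather than 40.0% of the members' calls were lower. Under it 13 uncalled members, Cltb, Cltc and most AP-1 genes among them, changed sign. Among all genes the same scaling took this share from 46.2% to 72.9%. Itsn1, Arrb1, Snap91, Hip1 and Amph were called in the same direction under all 18 alternative fits.

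**Figure D1:**
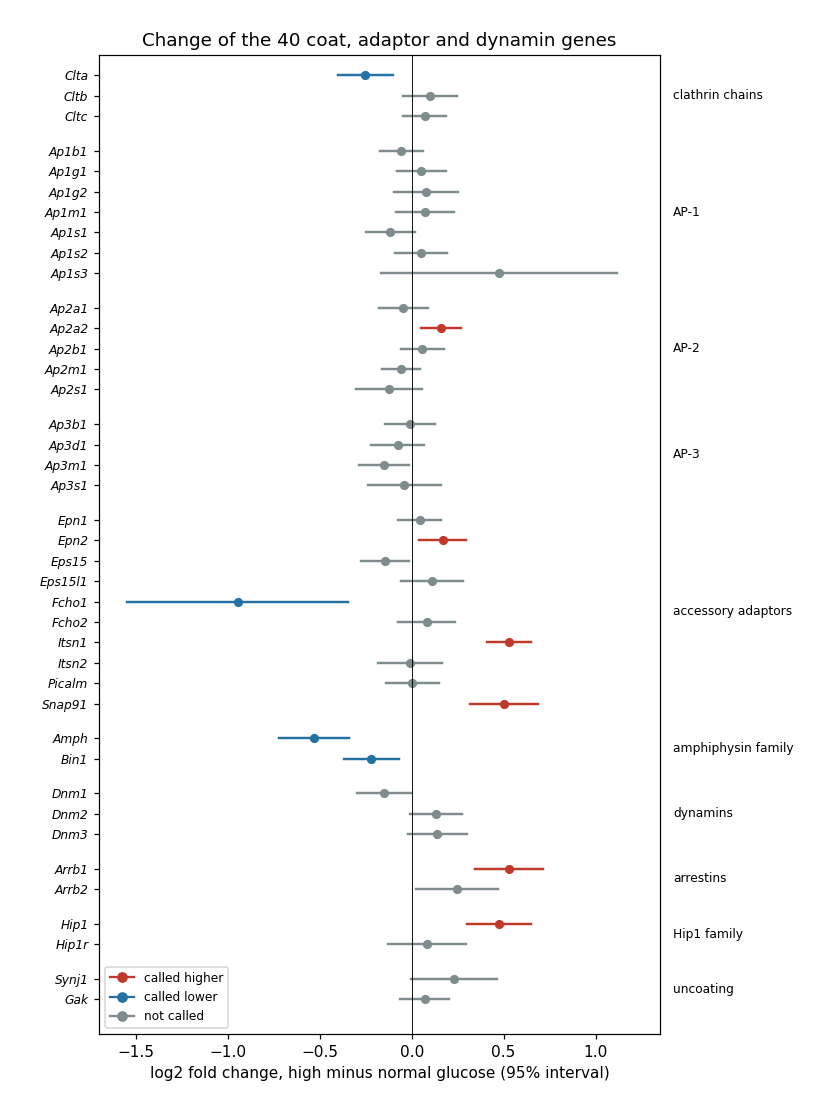
Log2 fold changes between high and normal glucose of the 40 genes, grouped by role, with points for the estimate and lines for its 95% interval (edgeR, 3 samples against 3). The 6 genes called higher are red, the 4 called lower are blue, and the 30 others are gray, with most gray intervals crossing 0.

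The sequences before the transcription start are given for the genes whose calls held in every fit and for the clathrin light chains, whose ratio shifted, so that each change can be read beside its promoter. RefSeq promoters (GRCm38.p6) matched 35 of the 40 genes, and Arrb1 was not among them. Where a gene had more than 1 start, the start nearest to the gene's first base in GENCODE M21 was taken, and bases within the annotated first exon were left out. The sequences run 5′ to 3′ toward the gene, and capitals mark matches on either strand to a GC box with the letters GGGCGG, to the CCAAT box or to the cAMP response element TGACGTCA.
Itsn1, chr16:91729121-91729280, plus strand: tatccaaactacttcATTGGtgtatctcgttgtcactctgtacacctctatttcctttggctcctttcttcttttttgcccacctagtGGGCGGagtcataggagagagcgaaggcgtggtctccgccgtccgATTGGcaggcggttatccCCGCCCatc
Hip1, chr5:135545123-135545372, minus strand: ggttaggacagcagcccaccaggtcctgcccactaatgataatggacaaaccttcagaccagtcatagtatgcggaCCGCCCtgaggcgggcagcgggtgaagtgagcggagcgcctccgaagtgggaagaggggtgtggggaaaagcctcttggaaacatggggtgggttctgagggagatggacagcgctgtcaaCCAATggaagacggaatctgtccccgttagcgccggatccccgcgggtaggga
Snap91, chr9:86880709-86880958, minus strand: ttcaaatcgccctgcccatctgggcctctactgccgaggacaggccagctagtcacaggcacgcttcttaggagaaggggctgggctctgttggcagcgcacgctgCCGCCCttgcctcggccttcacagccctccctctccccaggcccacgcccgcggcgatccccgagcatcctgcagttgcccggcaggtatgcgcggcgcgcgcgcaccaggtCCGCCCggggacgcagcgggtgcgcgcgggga
Amph, chr13:18948101-18948204, plus strand: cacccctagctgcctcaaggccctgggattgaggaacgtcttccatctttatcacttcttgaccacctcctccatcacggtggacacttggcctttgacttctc
Clta, chr4:44004193-44004442, plus strand: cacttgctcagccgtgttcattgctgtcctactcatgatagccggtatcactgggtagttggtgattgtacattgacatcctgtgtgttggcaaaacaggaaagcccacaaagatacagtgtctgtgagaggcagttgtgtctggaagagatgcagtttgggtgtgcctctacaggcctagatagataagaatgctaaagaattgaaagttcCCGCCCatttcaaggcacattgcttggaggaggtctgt
Cltb, chr13:54611374-54611623, minus strand: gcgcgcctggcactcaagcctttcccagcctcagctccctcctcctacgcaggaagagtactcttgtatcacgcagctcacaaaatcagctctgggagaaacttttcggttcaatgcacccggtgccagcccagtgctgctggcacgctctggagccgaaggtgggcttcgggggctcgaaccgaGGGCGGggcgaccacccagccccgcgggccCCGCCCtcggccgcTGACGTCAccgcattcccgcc
The Itsn1 window of 160 bases held 2 GC boxes and 2 CCAAT boxes, the Hip1 window 1 of each, and the Snap91 window 2 GC boxes. The bases left out of the Itsn1 window held further GC boxes, 82, 64 and 56 bases before its RefSeq start. Amph had no match in its 104 bases, and whether matches go with the direction of change was not tested. Clta had 1 GC box, and Cltb had 2 and a cAMP response element close to its start. A further RefSeq start of Clta, at position 44012670 of the same chromosome, had no GC box and 2 CCAAT boxes, 89 and 67 bases before it. The other start of Hip1, at position 135489229 of its chromosome, had 2 GC boxes, 52 and 47 bases before it, and no CCAAT box. In windows of 250 bases, the GC box occurred in 64.1% of 39 member promoters and 32.7% of all 32851 RefSeq promoters, the CCAAT box in 30.8% and 33.8%, and the cAMP response element in 5.13% and 1.55%. An E-box (CACGTG) occurred in 15.4% and 6.02%, and a TATA box (TATAAA) in none of the 39 and 12.4% of all. The 39 windows belong to 35 genes, and the overlapping windows of Epn1 hold the same GC box and E-box. Counted by gene, 23 of the 35 had a GC box and 5 an E-box. All members passed the filter on low counts, whereas the set of all promoters was not limited to genes that did. The shares therefore do not show what is particular to the members. These are matches of letters and not measured binding sites.

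The 3 clathrin chains were among the abundant members. Clta and Cltb encode the light chains, which line the outer side of the lattice, and Cltc encodes the heavy chain that forms its legs. Clta was at 155, 129 and 145 CPM in normal and at 121, 121 and 117 CPM in high glucose. Its highest high glucose sample lay below its lowest normal glucose sample. Clta fell by 0.25 on the log2 scale (95% interval -0.40 to -0.10, adjusted P = 0.0164), and the call was lost without high glucose replicate 3 (adjusted P = 0.0585). Cltb was at 59.0, 49.8 and 56.5 CPM in normal and at 58.6, 60.6 and 57.8 CPM in high glucose, with overlapping groups and a log2 change of 0.10 (-0.05 to 0.25, adjusted P = 0.291). Cltc had a log2 change of 0.07 (-0.05 to 0.19, adjusted P = 0.348).

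The light chains shifted relative to each other by more than either changed alone. Within each library the log2 ratio of Cltb to Clta counts was -1.40, -1.38 and -1.36 in normal and -1.05, -1.003 and -1.02 in high glucose. The groups stood far apart beside a pooled SD of 0.02, and the ratio was 1.28-fold higher in high glucose. Per kilobase of the longest transcript, Cltb made up 17.2% ± 0.193 of light chain RNA in normal and 20.9% ± 0.287 in high glucose (SD, n = 3). Such a ratio does not depend on the scaling between libraries, but a trend of the counts with length or GC can still alter it. The longest transcript of Cltb has 3174 bases and that of Clta 1710. An exact 2-sided permutation test of 3 samples against 3 cannot give a P value below 0.10, the value reached here (0.167 adjusted over the 15 pairs of related genes that were compared).

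AP-2, the adaptor of the plasma membrane, has a large alpha subunit encoded by either Ap2a1 or Ap2a2, and the subunits beta (Ap2b1), mu (Ap2m1), which binds tyrosine-based signals of cargo, and sigma (Ap2s1). Of these 5 genes, 1 was called higher and none lower, whereas scaling by total count alone gave none higher and 2 lower, Ap2m1 (adjusted P = 0.0133) and Ap2s1 (0.0433). Without normal glucose replicate 2, Ap2s1 was also called lower (0.0233). Ap2a2 was at 236, 246 and 248 CPM in normal and at 279, 267 and 272 CPM in high glucose, and its groups did not overlap. Its log2 fold change of 0.16 (0.05 to 0.27, adjusted P = 0.0307) fell to 0.05 with scaling by total count alone (adjusted P = 0.492), and all 6 fits with a sample left out lost the call. Exons of Gm16982 on the opposite strand cover 4.26% of its exonic bases, and whether counting used strand is not given in the sources used here.

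Ap2a1 was at 132, 141 and 145 CPM in normal and at 140, 126 and 139 CPM in high glucose, a log2 change of -0.05 (adjusted P = 0.598). The groups overlapped. The log2 ratio of Ap2a2 to Ap2a1 was 0.81 ± 0.03 in normal and 1.01 ± 0.06 in high glucose (SD, n = 3), without overlap (exact permutation P = 0.10, adjusted 0.167). Of the alpha subunit RNA per kilobase, Ap2a2 held 56.5% in normal and 60.0% in high glucose, but 16.7% of the exonic bases of Ap2a1 are shared with Fuz on the opposite strand. Ap2m1 had the highest length-scaled level of all members, 103 CPM per kilobase in normal glucose, and a log2 change of -0.06 (-0.16 to 0.05, adjusted P = 0.382), although its groups did not overlap. Ap2b1 and Ap2s1 had log2 fold changes of 0.06 (adjusted P = 0.432) and -0.12 (adjusted P = 0.287).

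None of the 7 AP-1 genes was called with edgeR, 0 had an unadjusted P under 0.05, and DESeq2 and the likelihood ratio test called 0 as well. With scaling by total count alone, Ap1b1 (adjusted P = 0.0288) and Ap1s1 (0.0126) were called lower, and Ap1s1 was also called lower without normal glucose replicate 2 (0.0308). With the GC and length trend removed, Ap1s2 was called higher (0.0167). AP-1 carries cargo between the trans-Golgi network and endosomes. Its subunits beta (Ap1b1), gamma (Ap1g1, Ap1g2), mu (Ap1m1) and sigma (Ap1s1, Ap1s2) had log2 fold changes between -0.12 for Ap1s1 and 0.08 for Ap1g2. The remaining sigma gene, Ap1s3, had the lowest length-scaled level of all members in normal glucose. It was counted 19, 44 and 38 times in normal and 58, 42 and 39 times in high glucose, and its groups overlapped. The log2 fold change of 0.47 had an interval from -0.17 to 1.11 (adjusted P = 0.242), which spans changes in both directions. Per kilobase, Ap1s1 made up 86.2% of the AP-1 sigma RNA in normal and 84.8% in high glucose.

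AP-3, which sends proteins to lysosomes and related organelles, had 4 members and none was called. All 4 log2 fold changes were below 0, at -0.15 for Ap3m1, -0.08 for Ap3d1, -0.04 for Ap3s1 and -0.01 for Ap3b1. Across the 18 alternative fits, Ap3m1 was called lower in 6 and Ap3d1 in 4. Both were called with scaling by total count alone and without normal glucose replicate 1. Removal of the GC and length trend, with or without the replicate block, also called both. Only Ap3m1 had an unadjusted P under 0.05 (adjusted P = 0.0853), and DESeq2 called it while the likelihood ratio test called none. Its groups did not overlap. Of its exonic bases, 29.8% are shared with Vcl on the opposite strand. Whether pseudogenes take part of the reads of Ap3m1, Ap3s1 or other members was not examined.

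**Figure D2:**
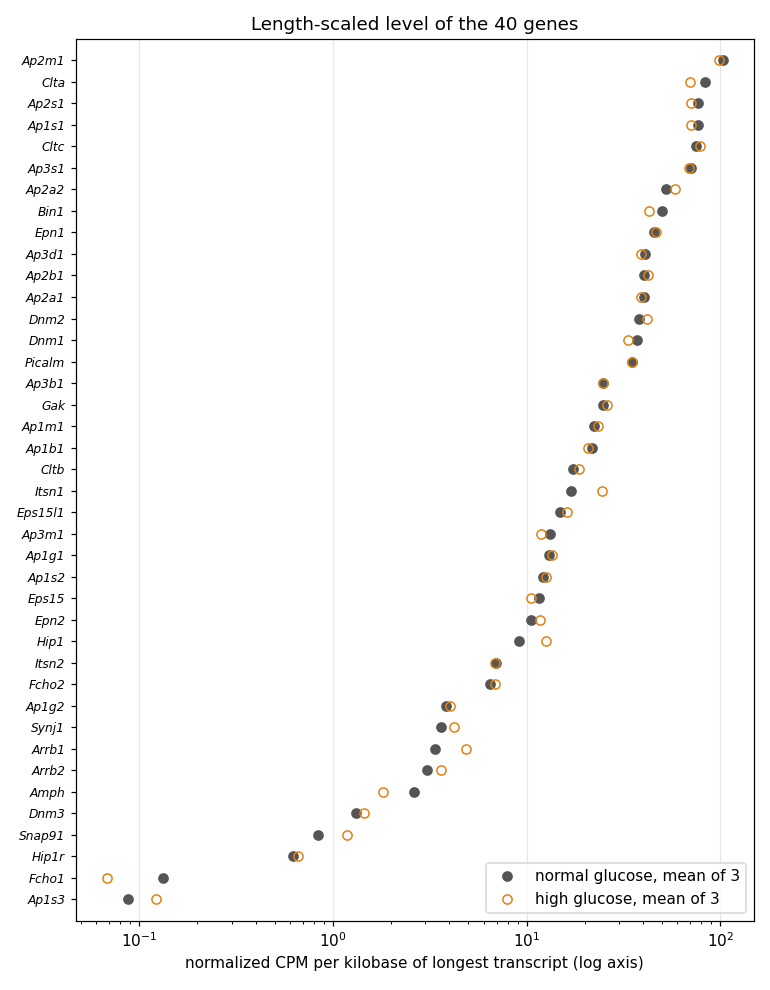
Mean level of each of the 40 genes in normal (filled) and high glucose (open), in normalized CPM per kilobase of the longest transcript on a log axis, ordered by the normal glucose level. The levels run from 103 for Ap2m1 to 0.0879 for Ap1s3, and the paired points lie close together for most genes.

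The order of the length-scaled levels was led by Ap2m1. The next 4 genes in normal glucose were Clta (83.7 CPM per kilobase), Ap2s1 (77.0), Ap1s1 (76.9) and Cltc (75.0). At the other end of the order stood Amph at 2.62, Dnm3 at 1.32, Snap91 at 0.836 and Hip1r at 0.621, with Fcho1 (0.132) and Ap1s3 (0.0879) lowest. In high glucose, Ap2m1 stayed first at 99.0, and Cltc (78.8) stood above Clta (70.2). The length of the longest transcript stands in for the isoforms present, which the counts do not show.

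Of the 10 accessory adaptors, 3 were called higher and 1 lower. Itsn1 encodes intersectin, a scaffold that binds Eps15, epsins and dynamin at the pit and, in its long form, activates Cdc42. It was at 224, 245 and 246 CPM in normal and at 341, 343 and 347 CPM in high glucose. Every high glucose sample lay well above every normal glucose sample. Itsn1 rose by 0.53 on the log2 scale, or 44.1% (SE 0.05, 95% interval 0.41 to 0.65, adjusted P = 4.44e-05), and 1040 called genes rose more. When trends of the counts with GC and length were removed from every library, this became 0.27 (adjusted P = 0.00109), and its longest transcript, of 14012 bases, is the longest of the 40. Among all called members, the longest transcripts ran from 4458 (Epn2) to 14012 bases for the higher genes. For the lower genes they ran from 1710 (Clta) to 3367 bases (Amph). Removal of these trends kept 10 calls in the same direction, and 8 with the replicate block. The part that length plays in the calls was not tested.

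Itsn2, its paralog, was at 36.9, 47.0 and 42.7 CPM in normal and at 41.5, 42.3 and 41.9 CPM in high glucose. Its groups overlapped, with a log2 change of -0.01 (-0.19 to 0.17, adjusted P = 0.941). The log2 ratio of Itsn2 to Itsn1 was -2.60, -2.38 and -2.53 in normal and -3.04, -3.02 and -3.05 in high glucose, again without overlap (exact permutation P = 0.10, adjusted 0.167). Per kilobase, Itsn1 made up 71.1% ± 1.58 of intersectin RNA in normal and 78.1% ± 0.166 in high glucose (SD, n = 3). Exons on the opposite strand cover part of Itsn2, 11% of its exonic bases being shared with Gm48678.

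Picalm and Snap91 encode CALM and AP180, related proteins that bind lipids and clathrin, the first broadly expressed and the second best known from synapses. Picalm was at 271, 316 and 278 CPM in normal and at 282, 297 and 288 CPM in high glucose, a log2 change of 0.00 (-0.14 to 0.15, adjusted P = 0.972). Snap91 was at 4.21, 4.59 and 4.64 CPM in normal and at 6.55, 6.34 and 6.15 CPM in high glucose, with no overlap. Its log2 fold change was 0.50 (0.32 to 0.69, adjusted P = 0.00111). Even so it remained a small part of the pair, at 2.33% of their RNA per kilobase in normal and 3.25% in high glucose. Of 6 neuron markers, 4 passed the filter, 1 was called lower (Snap25) and none higher, and Rbfox3, which defines neurons, had at most 3 counts in any sample. The sum of the neuron markers was 4.58 to 5.58 CPM in normal and 4.28 to 4.64 CPM in high glucose.

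Epsins, encoded by Epn1 and Epn2, bend the membrane and bind ubiquitinated cargo, and they are known in ECs as adaptors of VEGFR2. Epn2 was at 43.7, 47.9 and 48.9 CPM in normal and at 52.7, 51.8 and 53.3 CPM in high glucose. The groups did not overlap, and the log2 fold change was 0.17 (0.04 to 0.29, adjusted P = 0.0453). This call was kept in 3 of the 18 alternative fits and in none that left out a sample, and with scaling by total count alone the log2 fold change was 0.05 (adjusted P = 0.495). Epn1 was at 113, 114 and 122 CPM in normal and at 124, 117 and 119 CPM in high glucose, with a log2 change of 0.04 (adjusted P = 0.570).

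Eps15 and Eps15l1 encode scaffolds that bind AP-2 and epsins early in the life of a pit, and Fcho1 and Fcho2 encode F-BAR proteins that arrive at about the same time. Eps15 (-0.15, adjusted P = 0.0837) and Eps15l1 (0.11, adjusted P = 0.297) had log2 fold changes of opposite sign, neither of them called, and the log2 ratio of Eps15l1 to Eps15 overlapped between the groups. In 7 of the 18 alternative fits, DESeq2 among them, Eps15 was called lower, and its sign was the same in all 18. Fcho2, the abundant member of its pair, had a log2 change of 0.08 (adjusted P = 0.416). Fcho1 was counted 48, 62 and 65 times in normal and 46, 21 and 24 times in high glucose, from 0.443 ± 0.0623 to 0.228 ± 0.0837 CPM (SD, n = 3). After normalization the groups did not overlap, but high glucose replicate 1 stood between the other 2 and the normal glucose samples. Fcho1 fell by 0.94 on the log2 scale (95% interval -1.55 to -0.34, adjusted P = 0.0230), and the call was lost without normal glucose replicate 3 (adjusted P = 0.0807), high glucose replicate 2 (0.0751) or high glucose replicate 3 (0.0891). It made up 2.01% of Fcho RNA per kilobase in normal and 0.984% in high glucose.

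**Figure D3:**
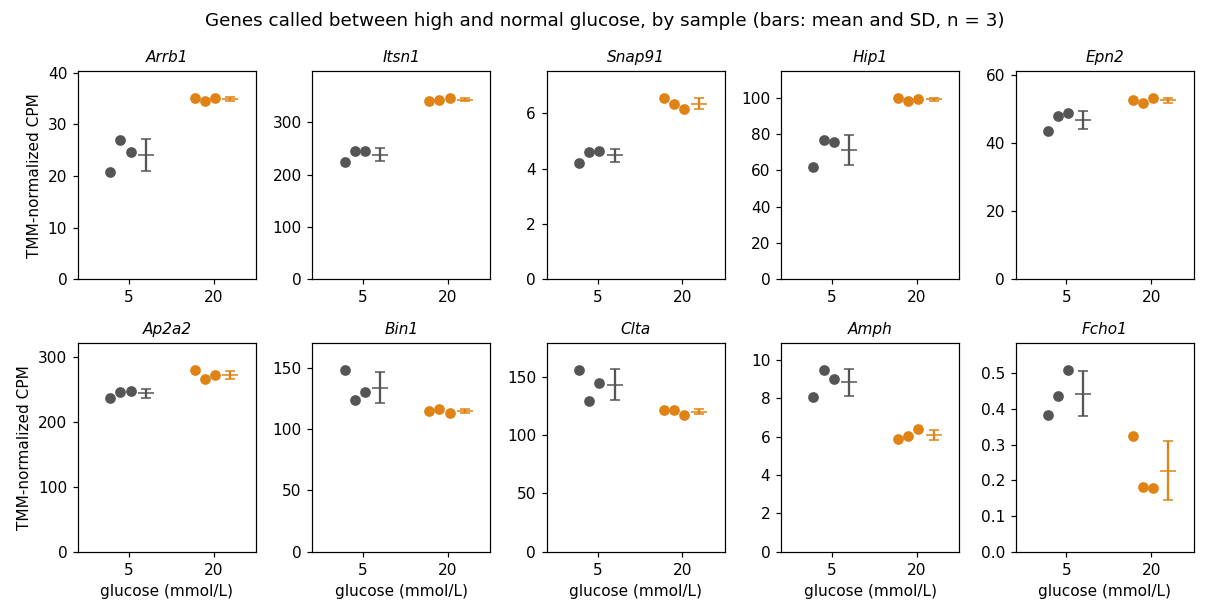
Normalized CPM of the 10 called genes in each of the 6 samples, at 5 and 20 mmol/L glucose on axes that start at 0, with mean and SD (n = 3) beside the points. The high glucose samples of Itsn1, between 341 and 347 CPM, lie clear of the normal glucose samples, whereas those of Ap2a2 and Epn2 lie only just above.

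Both amphiphysin genes were called lower. Amphiphysins bind curved membrane through a BAR domain and recruit dynamin and clathrin, and Amph is best known from synapses and Bin1 from muscle. Amph was at 8.04, 9.45 and 8.98 CPM in normal and at 5.89, 6.02 and 6.40 CPM in high glucose. The groups were well separated. Amph fell by 0.53 on the log2 scale, or by 30.8% (95% interval -0.72 to -0.34, adjusted P = 9.50e-04), and the neuron markers beside it are those given for Snap91, which moved the other way.

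Bin1 was at 148, 124 and 130 CPM in normal and at 115, 116 and 113 CPM in high glucose. Its groups did not overlap. Bin1 fell by 0.22 on the log2 scale (-0.37 to -0.07, adjusted P = 0.0306), and the call was lost without high glucose replicate 1 (adjusted P = 0.0725), 2 (0.0607) or 3 (0.0862). Of 8 markers of smooth muscle and pericytes, 5 were called lower and 1 higher, and their summed level was 1179 to 1262 CPM in normal and 1066 to 1135 CPM in high glucose. Whether the level of Bin1 followed them was not tested. The log2 ratio of Amph to Bin1 overlapped between the groups, at -3.92 ± 0.25 in normal and -4.23 ± 0.08 in high glucose (SD, n = 3).

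None of the 3 dynamin genes was called with edgeR, while Dnm1 alone had an unadjusted P under 0.05, and neither DESeq2 nor the likelihood ratio test called any. Dnm2 is the broadly expressed dynamin, and Dnm1 and Dnm3 are best known from brain. Dnm1 was at 159, 176 and 177 CPM in normal and at 163, 143 and 157 CPM in high glucose, a log2 change of -0.15 (-0.29 to -0.002, adjusted P = 0.114). Dnm2 was at 123, 138 and 141 CPM in normal and at 149, 140 and 151 CPM in high glucose, a log2 change of 0.13 (-0.01 to 0.27, adjusted P = 0.137). Each gene alone overlapped between the groups. Dnm1 was called lower in 5 of the 18 alternative fits, 1 of them without normal glucose replicate 1. The others used upper quartile factors, scaling by total count alone, and removal of the GC and length trend with or without the replicate block.

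The balance between Dnm1 and Dnm2 did not overlap. The log2 ratio of Dnm1 to Dnm2 was 0.37, 0.35 and 0.33 in normal and 0.12, 0.03 and 0.05 in high glucose. This was 0.28 lower on the log2 scale, beside a pooled SD of 0.04 (exact permutation P = 0.10, adjusted 0.167). Per kilobase, Dnm1 made up 48.5% ± 0.238 of dynamin RNA in normal and 43.6% ± 0.911 in high glucose, and Dnm2 49.8% ± 0.406 and 54.5% ± 0.793 (SD, n = 3). Dnm3 held the remaining 1.73% and 1.90%. Tmed1 on the opposite strand shares 3.88% of the exonic bases of Dnm2.

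Of the 15 pairs of related genes, 9 had log2 ratios that did not overlap between the groups, or 60%. Among all 180775605 pairs of tested genes 45.1% did so. Besides the pairs already given, the ratios of Snap91 to Picalm (1.41-fold) and Epn2 to Epn1 (1.09-fold) were higher, and those of Hip1r to Hip1 (0.758-fold), Fcho1 to Fcho2 (0.473-fold) and Ap1b1 to Ap2b1 (0.924-fold) were lower in high glucose. Each had the smallest P value that the exact permutation test allows, 0.10 (adjusted 0.167). In most of the pairs without overlap, the gene with the longer longest transcript gained on the other in high glucose. The exceptions were Snap91 with Picalm and Dnm1 with Dnm2, where the shorter gained. Whether length plays a part in the ratios was not tested. The ratios of Ap1g2 to Ap1g1, Ap1m1 to Ap2m1 and Dnm3 to Dnm2 overlapped between the groups.

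**Figure D4:**
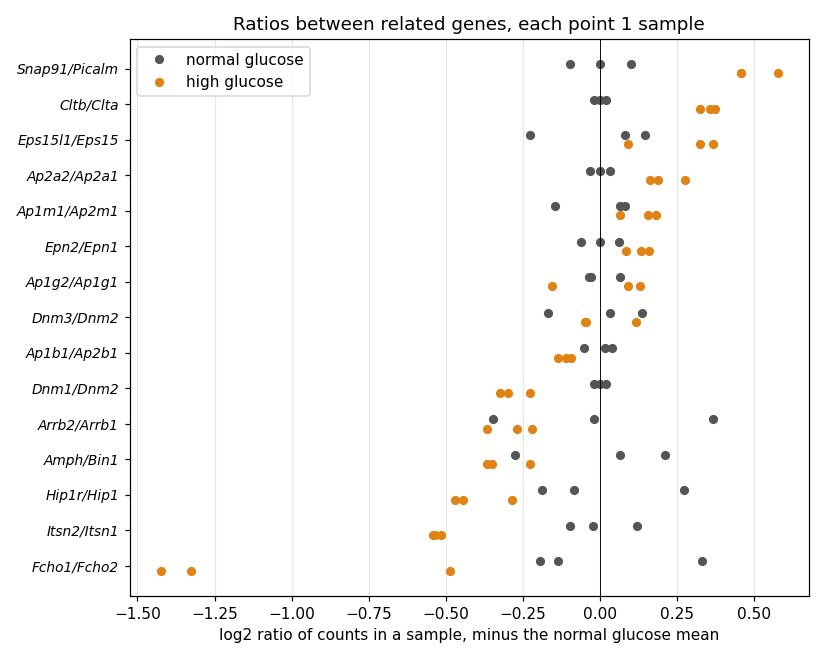
Log2 ratio of the counts of related genes in each sample, as the difference from the normal glucose mean of that pair, with 1 point per sample. The samples of Cltb/Clta and Dnm1/Dnm2 cluster tightly and apart by glucose, whereas those of Arrb2/Arrb1, Amph/Bin1, Eps15l1/Eps15, Ap1m1/Ap2m1, Ap1g2/Ap1g1 and Dnm3/Dnm2 overlap.

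Beta-arrestins bring activated G protein-coupled receptors to clathrin and AP-2. Arrb1 was at 20.8, 27.0 and 24.7 CPM in normal and at 35.1, 34.4 and 35.1 CPM in high glucose, and the groups did not overlap. It rose by 44.3%, a log2 change of 0.53 (SE 0.08, 95% interval 0.34 to 0.71, adjusted P = 8.06e-04). Arrb2 was at 6.29, 4.96 and 5.71 CPM in normal and at 7.05, 6.70 and 6.38 CPM in high glucose. Its groups did not overlap either, but the log2 fold change of 0.25 (0.03 to 0.47) was not called (adjusted P = 0.0850). Arrb2 was called higher in 3 of the 18 alternative fits. These were the fits with the GC and length trend removed and the fit without normal glucose replicate 1. The log2 ratio of Arrb2 to Arrb1 overlapped between the groups, with a spread of 0.36 (SD) in normal glucose, so the genes were not shown to differ in response.

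Hip1 and Hip1r encode proteins that link clathrin light chains to the actin cytoskeleton. Hip1 was at 61.8, 76.7 and 75.7 CPM in normal and at 99.9, 98.5 and 99.2 CPM in high glucose. The high glucose samples agreed closely and lay above all normal glucose samples. Hip1 rose by 38.9% (log2 fold change 0.47, 95% interval 0.30 to 0.65, adjusted P = 0.00107). Hip1r was at 4.39, 4.25 and 3.90 CPM in normal and at 4.82, 4.18 and 4.29 CPM in high glucose, a log2 change of 0.08 (-0.13 to 0.30, adjusted P = 0.545). Hip1r shares 12.5% of its exonic bases with Vps37b on the opposite strand.

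Neither uncoating factor was called with edgeR, 0 had an unadjusted P under 0.05, and DESeq2 and the likelihood ratio test called 0. Synj1 encodes synaptojanin, which removes phosphates from the lipids that hold the coat, and had a log2 change of 0.23 (-0.01 to 0.46, adjusted P = 0.126). Without normal glucose replicate 2, Synj1 was called higher (adjusted P = 0.0260). Gak encodes the kinase and auxilin relative that recruits Hsc70 to coated vesicles, and had a log2 change of 0.07 (-0.06 to 0.20, adjusted P = 0.399).

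**Figure D5:**
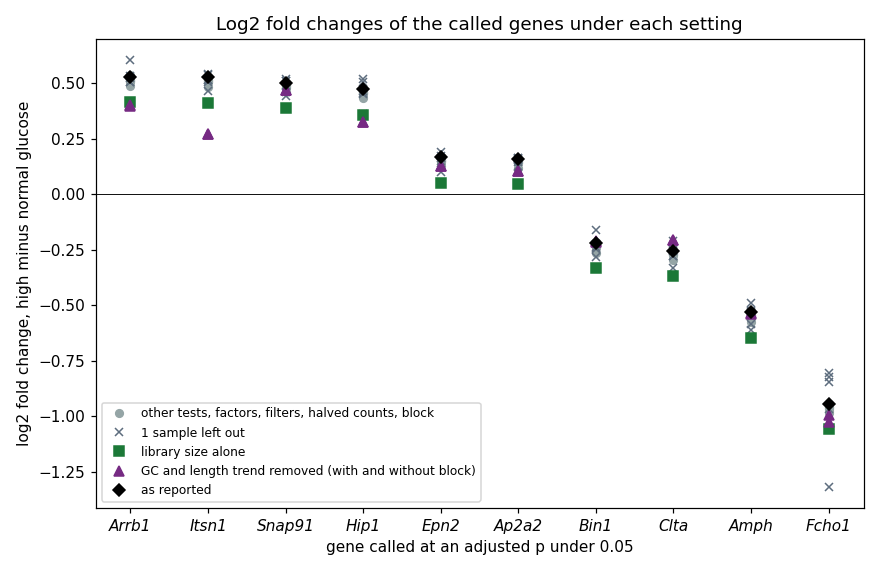
Log2 fold change of the 10 called genes as reported (diamonds) and under the alternative fits, including each sample left out (crosses), scaling by total count alone (squares) and removal of the GC and length trend (triangles). No gene crosses 0, Ap2a2 and Epn2 come closest at 0.05, and Itsn1 drops to 0.27 when the GC and length trend is removed.

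Other genes of vesicle coats were read from the same fit, in which 14.5% of all tested genes were called lower, 16.9% higher and 31.4% in either direction. Of 20 other clathrin adaptors and cargo binders, 4 were called lower and 1 higher (25.0% called), with a median log2 fold change of -0.04. Dab2, the adaptor of lipoprotein receptors and integrins on which the study centers, fell by 0.26 on the log2 scale (adjusted P = 0.0201), from 61.7 ± 6.48 to 51.5 ± 0.813 CPM (SD, n = 3). Sgip1, a relative of the Fcho genes, fell by 0.36. Of 11 tested subunits of other AP complexes and isoforms, 1 was lower and 2 were higher (27.3% called), with a median of 0.02. Scaling by total count alone gave 4 lower and 1 higher. Ap3m2 and Ap5b1 had log2 fold changes of 0.35 and 0.31 where Ap4s1 had -0.33.

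Of 21 tested factors for bending, scission and uncoating, 2 were lower and 3 higher (23.8% called), with a median of 0.02. Scaling by total count alone gave 6 lower and 1 higher. Dnajc6, which encodes auxilin, was under 1 CPM in every sample and rose by 0.66 on the log2 scale, from 0.544 ± 0.0675 to 0.861 ± 0.0308 CPM (SD, n = 3). Synj2 and Snx9, which bind lipids or dynamin, fell by 0.30 and 0.26. Among 14 genes of caveolae, the other main coat of the endothelial surface, 3 were lower and 2 higher (35.7% called) with a median of -0.06. Cavin3 (0.44) and Cav1 (-0.32) moved in opposite directions.

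Of the COPI and COPII genes, which encode the coats of the early secretory pathway, 11.1% and 0% were called, against 31.4% of all tested genes. Of 9 COPI genes, 1 was called lower (Copz2, -0.20) with a median of -0.07. None of 11 COPII genes was called with edgeR, 1 had an unadjusted P under 0.05, and DESeq2 and the likelihood ratio test each called 1 higher. With scaling by total count alone, 5 COPI and 3 COPII genes were called lower.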

How the data were processed

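Bulk RNA-sequencing of 6 cultures, 3 in normal and 3 in high glucose by their labels, was analysed. The authors used Trimmomatic for trimming, HISAT2 for alignment to GRCm38 and StringTie for enumeration per gene, and deposited unnormalized counts. Strand, versions and annotation are not given in the sources used here. The labels name TRIzol and the DNBSeq platform, and the paper's methods describe other RNA isolation and sequencing. A count of 2 was nearly as frequent as 1 (9280 against 10842 entries), as when both reads of a pair are counted, so halved counts were tried. A floor of 3 counts, which covers counting error only, was 0.0211 to 0.0258 CPM. Intervals of log2 fold changes rest on the spread between samples.

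Genes were filtered (filterByExpr, minimum count 10 and minimum total 15), scaled by TMM factors (0.954 to 1.05) and compared with edgeR 4.0.16 in R 4.3.3, at an adjusted P under 0.05 over all tested genes. The fit was tested on simulated data. Alternatives used DESeq2 1.42.0, other scalings, filters and thresholds, a replicate block, GC and length trends (mgcv 1.9.3) and each sample left out. Log2 ratios added 0.5 counts to each gene and were tested with scipy 1.17.1. Positions and exons came from GENCODE M21. Any member could be named, with samples' values for called members with an absolute log2 fold change of at least 0.3, genes of pairs and genes under 1 CPM; other lists gave Dab2 and at most 3 called genes with the largest changes. The members and lists were chosen with earlier results of these data known.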

Additional observations from a re-analysis of the deposited data

How the results depend on the processing

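Of the 40 members, Itsn1, Arrb1, Snap91, Hip1 and Amph kept direction and call in every alternative, and no called member reversed. Of the 30 uncalled members, 11 passed the threshold in at least 1 alternative and 16 changed sign without passing. The members called lower numbered 7 with upper quartile factors, 12 with scaling by total count, 8 with the GC and length trend removed, 7 with that and the replicate block, 1 at an adjusted P under 0.01 and 2 with a change of at least 1.2-fold. Leaving out 1 sample gave between 1 and 7. The members called higher numbered between 4 and 8 in all. The median log2 fold change of all tested members, called or not, was 0.055 as reported. It was 0.013 with upper quartile factors, -0.060 with scaling by total count and 0.035 without a filter. A minimum of 1 CPM gave 0.039 and halved counts 0.036. Removal of the GC and length trend gave 0.0056, and 0.0057 with the replicate block added. Without 1 sample the median lay between 0.0053 and 0.066. The cause was not tested. The replicate numbers did not pair the samples (correlations of deviations -0.0248, 0.0038 and 0.0127), and for each number the highest correlation was with a different number (0.0409, 0.0409 and 0.0267). With the replicate block, 4 members were lower and 4 higher, the median was 0.057, and the calls of Ap2a2 and Epn2 were lost. Of the 15 ratios between related genes, 13 kept their direction in every alternative run for ratios. These were halved counts, ratios without the added counts, and each sample left out. Halving hardly alters a ratio, so the result rests mainly on leaving out samples. Removal of the GC and length trend was not applied to the ratios. In the fits of single genes it took Itsn1 from 0.53 to 0.27 and Itsn2 from -0.01 to -0.09 on the log2 scale. Across the 18 fits, the other adaptors called lower numbered 1 to 8 and the caveolar genes 2 to 6. Ap1s3 and Fcho1 rest on the fewest counts, 19 to 65 per sample, and whether depth or the spread between samples limits them was not tested.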
